A study of Mus musculus with 20 samples.

Results

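The genes described here are 40 members of the integrated stress and unfolded protein responses, in 2 arms: 18 genes of the ATF4 amino acid response (the ATF4 arm) and 22 chaperones and sensors of the endoplasmic reticulum (the ER arm). They were chosen by symbol in the array annotation, with the probe set of the highest mean signal standing for each gene. Of the 40, 37 had a named probe set among the 19505 genes in all, 17 of the ATF4 arm and 20 of the ER arm, while Pycr1, Pdia4 and Manf were not analysed here. No filter on low signal was set, so all 37 entered every test.

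ATF4 is a transcription factor whose translation increases when eIF2alpha is phosphorylated, by GCN2 when amino acids run short or by PERK when unfolded proteins fill the ER, and it can also be raised downstream of mTORC1. Its targets make and import amino acids, charge tRNAs and, with CHOP (Ddit3), feed back on the response. In the ER, the sensors IRE1 (Ern1), ATF6 and PERK (Eif2ak3) respond to unfolded proteins; IRE1 splices the Xbp1 mRNA, and XBP1 and ATF6 then drive chaperone genes. T cells expand the secretory pathway when they are activated, and the small G proteins Rag and Rheb carry amino acid and growth factor signals to mTORC1.

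Messenger RNA was measured on Clariom S mouse arrays in CD4+CD25+ regulatory T cells (Tregs) of C57BL/6 background, enriched on CD4 beads and sorted. The Rheb experiment had 3 arrays in each of 4 groups: WT unstimulated, WT stimulated, Rheb1/2 KO unstimulated and Rheb1/2 KO stimulated. The Rag experiment had 2 arrays in each of 4 groups: WT unstimulated, WT stimulated for 8 h, RagAB KO unstimulated and RagAB KO stimulated for 8 h. The stimulus, its length in the Rheb experiment, the way in which the genes were deleted, the cells in which they were, and the ages of the mice are not given in the sources used. Groups follow the sample titles; for 3 Rheb1/2 KO unstimulated and 3 WT stimulated arrays of the Rheb experiment the treatment field says the opposite of the title. Whether arrays of a group came from separate mice is not stated, so p-values measure the spread between these arrays, which may be technical.

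The values are log2 signals after RMA (background correction, quantile normalisation and summary per probe set, by the authors). Array medians spanned 7.67 to 7.77 in the 12 Rheb arrays but 7.18 to 7.55 in the 8 Rag arrays, so the Rag arrays were less evenly scaled. Markers of Tregs (8 of 10 measured, Foxp3 not among them) had mean signals of 10.9 to 11.2 in every array of the Rheb experiment and 10.1 to 11.4 in the Rag experiment, and Il2ra, which encodes CD25, lay between 6.65 and 7.98 in the Rheb experiment. Jchain, a plasma cell gene, stood at 9.33 to 10.17 in the Rag arrays WT unstimulated 1, WT stimulated 1, RagAB KO unstimulated 2 and RagAB KO stimulated 2, against 6.94 to 7.55 in the other 4 Rag arrays. The plasma cell genes Mzb1 (5.17 to 6.67) and Sdc1 (6.27 to 7.22) lay below the array median in every Rag array. Mzb1 read 6.23 in both unstimulated RagAB KO arrays. It ran from 5.17 to 6.67 in unstimulated WT, 5.79 to 6.48 in stimulated WT and 5.73 to 6.47 in stimulated RagAB KO arrays. The mean of 8 plasma cell markers, Jchain among them, was 7.80 to 7.93 in the arrays with high Jchain. In the other 4 Rag arrays it was 6.94 to 7.48. Cells were measured in bulk, so fewer cells of a type and less RNA per cell cannot be told apart. A gene was called changed at a Benjamini-Hochberg adjusted p below 0.05 over all 19505 genes in limma, and values after ± are standard errors of a log2 difference.

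Within the arms, most ER genes were well expressed. Of the 20 ER genes, 17 lay above the array's own median in each of the 20 arrays, and of the 17 ATF4 genes 9 did. Cth and Stc2, a cysteine-making enzyme and a secreted stress glycoprotein, read under the negative controls' median in each of the 20 arrays.

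The promoters show what binding-site letters the 2 arms hold, and 8 are printed because their genes carry the results that follow. Sequences come from the RefSeq table of build GRCm38.p6, which held 36 of the 40 members; the search covered the 250 bases before the annotated start, on both strands. The ER stress response element (ERSE), CCAAT and CCACG spaced by 9 bases of any kind, was found in 8 of 19 ER genes (42.1%: Calr, Canx, Creld2, Dnajc3, Hsp90b1, Hspa5, Pdia6 and Syvn1), in 0 of 17 ATF4 genes and in 0.13% of the 27025 genes of the table. ERSE-II, ATTGG and CCACG spaced by 1 base, was found in Herpud1 alone of the members (5.26% of the ER genes) and in 0.037% of all genes; this motif was added after the promoters had been seen. The C/EBP-ATF element bound by ATF4, TGATG, 1 base of any kind and AA, was found in 5 of 17 ATF4 genes (29.4%: Asns, Chac1, Nupr1, Pycr1 and Vldlr), in 1 of 19 ER genes (Herpud1) and in 3.91% of all genes. CCACG alone, which both ERSE forms contain, was in 73.7% of the ER genes, 76.5% of the ATF4 genes and 31% of all genes. TGACG followed by TGG, the only letters searched as UPRE, was in no member and in 0.603% of all genes. The printed Hspa5 stretch holds TGACG followed by TGA, which was not searched, so the absence covers the searched letters only. A match is a description of these letters, not proof of binding.

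The first 4 sequences belong to genes that fell on stimulation in the Rheb experiment, the next 3 to genes that rose and the last to the ATF4 target asparagine synthetase; each is 170 bases, read 5′ to 3′ on the gene's strand, with the letters of ERSE, ERSE-II or the C/EBP-ATF element in capitals.
Hspa5, chr2:34771920-34772089, plus strand: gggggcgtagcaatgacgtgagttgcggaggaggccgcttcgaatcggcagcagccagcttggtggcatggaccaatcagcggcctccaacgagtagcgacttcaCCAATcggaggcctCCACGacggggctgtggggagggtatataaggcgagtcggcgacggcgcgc
Syvn1, chr19:6046406-6046575, plus strand: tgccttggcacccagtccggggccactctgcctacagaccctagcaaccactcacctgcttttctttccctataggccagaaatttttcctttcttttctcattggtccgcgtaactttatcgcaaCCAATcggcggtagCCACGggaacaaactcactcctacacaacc
Herpud1, chr8:94386259-94386428, plus strand: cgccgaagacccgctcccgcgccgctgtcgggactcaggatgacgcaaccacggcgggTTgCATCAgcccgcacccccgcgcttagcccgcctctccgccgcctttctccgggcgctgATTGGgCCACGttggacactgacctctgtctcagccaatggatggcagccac
Dnajb9, chr12:44210069-44210238, minus strand: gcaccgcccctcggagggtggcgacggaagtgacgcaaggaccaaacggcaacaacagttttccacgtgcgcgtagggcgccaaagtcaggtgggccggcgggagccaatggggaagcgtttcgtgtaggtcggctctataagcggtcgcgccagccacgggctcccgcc
Pdia6, chr12:17266419-17266588, plus strand: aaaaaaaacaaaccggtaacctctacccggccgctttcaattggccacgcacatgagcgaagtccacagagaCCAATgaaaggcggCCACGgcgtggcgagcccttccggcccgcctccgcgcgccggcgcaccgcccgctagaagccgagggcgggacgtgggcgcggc
Hsp90b1, chr10:86705445-86705614, minus strand: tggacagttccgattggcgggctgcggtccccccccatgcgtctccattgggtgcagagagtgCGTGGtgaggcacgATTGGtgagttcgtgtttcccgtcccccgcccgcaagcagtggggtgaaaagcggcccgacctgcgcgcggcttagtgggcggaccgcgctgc
Creld2, chr15:88819476-88819645, plus strand: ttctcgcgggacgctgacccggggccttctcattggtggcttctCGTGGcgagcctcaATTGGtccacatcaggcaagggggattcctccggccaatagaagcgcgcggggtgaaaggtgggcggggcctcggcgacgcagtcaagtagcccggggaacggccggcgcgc
Asns, chr6:7693210-7693379, minus strand: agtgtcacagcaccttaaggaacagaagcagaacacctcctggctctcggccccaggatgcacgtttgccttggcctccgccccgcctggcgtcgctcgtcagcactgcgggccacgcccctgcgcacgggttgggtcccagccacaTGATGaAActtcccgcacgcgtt

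Hspa5, Syvn1, Pdia6, Hsp90b1 and Creld2 share ERSE, Herpud1 holds ERSE-II beside a C/EBP-ATF match, and the printed Dnajb9 stretch has no match to any of the 3. In Hsp90b1 and Creld2, and for the C/EBP-ATF match of Herpud1, the element lies on the opposite strand, so the capitals show its reverse complement; Hsp90b1 has another ERSE upstream of the printed stretch. Genes with an ERSE were found both among those that fell (Hspa5, Syvn1, Calr) and among those that rose (Pdia6, Hsp90b1, Creld2) in the comparisons below.

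Stimulation in the Rheb experiment moved ER genes in opposite directions. In WT Tregs 12 of the 37 members changed (32.4%, against 9.37% of all genes tested), 8 higher and 4 lower (against 4.49% and 4.89% of all genes). Rheb1/2 KO Tregs had 8 changed members (21.6%, against 9.75% of all genes), 4 higher and 4 lower (against 4.55% and 5.19%). The 2 genotypes shared 7 of these calls, each in the same direction. The co-chaperone Dnajb9, the ER-degradation gene Herpud1 and the chaperone Hspa5 (BiP) fell, whereas Xbp1, Hsp90b1 (GRP94), Cebpg and Aldh18a1 rose in both genotypes.

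In the ER arm, 9 of 20 genes changed in WT (5 higher, 4 lower) with a median log2 change of 0.04 over the arm, and 6 of 20 changed in Rheb1/2 KO (2 higher, 4 lower) with a median of 0.01. The all-gene medians were 0.02 and -0.01, close to those of the arm, whose members were called on both sides. In the ATF4 arm, 3 of 17 rose in WT and 2 in Rheb1/2 KO, none fell, and the median was 0.06 in both.

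**Figure D1:**
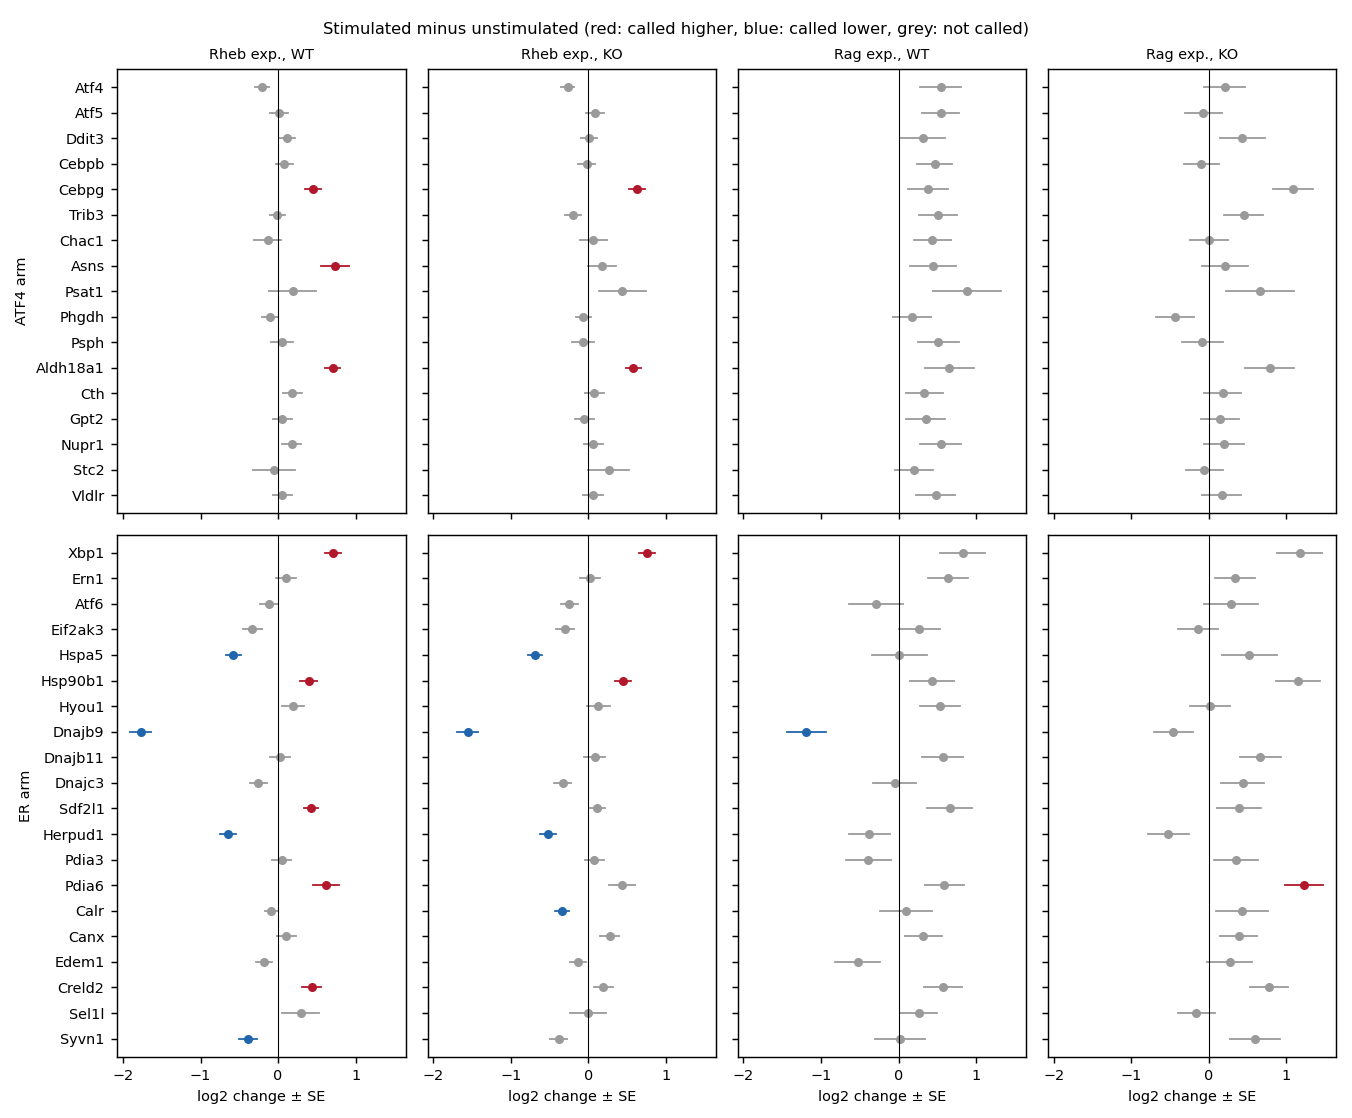
Log2 change from unstimulated to stimulated Tregs (horizontal axis, bars are standard errors) of each of the 37 measured genes in the 4 stimulation comparisons, red for higher, blue for lower and grey for not called at adjusted p below 0.05. In the Rheb experiment Dnajb9 lay lowest, at -1.77 in WT and -1.55 in Rheb1/2 KO, and Xbp1 lay highest in the ER arm, at 0.71 and 0.75.

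Dnajb9 (ERdj4), a co-chaperone that hands misfolded proteins to BiP and holds IRE1 inactive, had signals of 11.58, 11.34 and 11.44 in unstimulated WT arrays and 9.87, 9.78 and 9.40 after stimulation. Knockout arrays went from 11.39, 11.53 and 11.56 to 9.73, 10.07 and 10.03. The stimulated arrays lay below the unstimulated ones in both genotypes, with no overlap. The log2 change was -1.77 ± 0.14 in WT (adjusted p = 6.48e-06) and -1.55 ± 0.14 in Rheb1/2 KO (adjusted p = 1.27e-05).

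Herpud1, a membrane protein of ER-associated degradation, read 10.93, 11.02 and 10.78 in unstimulated WT and 10.18, 10.28 and 10.33 in stimulated WT. Its Rheb1/2 KO arrays read 10.67, 10.67 and 10.61 before and 10.23, 10.17 and 9.98 after. Again no stimulated array reached an unstimulated one; the changes were -0.65 ± 0.10 (adjusted p = 0.00101) and -0.52 ± 0.10 (adjusted p = 0.00401). Hspa5, the BiP chaperone that binds and silences the stress sensors, fell from 11.85, 11.73 and 11.71 to 11.27, 11.18 and 11.11 in WT. Its Rheb1/2 KO arrays fell from 11.69, 11.82 and 11.85 to 11.07, 11.17 and 11.07. Its changes were -0.58 ± 0.09 (adjusted p = 0.00125) and -0.69 ± 0.09 (adjusted p = 0.000304), again without overlap.

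Syvn1 (HRD1), the ubiquitin ligase of ER-associated degradation, read 9.76, 9.64 and 9.98 in unstimulated and 9.49, 9.39 and 9.32 in stimulated WT arrays. It fell by 0.39 on the log2 scale in WT (adjusted p = 0.0484); in Rheb1/2 KO the change was -0.38 (adjusted p = 0.0522), from 9.50, 9.59 and 9.74 to 9.37, 9.20 and 9.11. The arrays did not overlap in either genotype, and the WT call stood at the edge of the threshold. Calr (calreticulin), a lectin chaperone, read 10.75, 10.81 and 10.72 in unstimulated and 10.42, 10.36 and 10.47 in stimulated Rheb1/2 KO arrays, a change of -0.34 ± 0.09 (adjusted p = 0.0246). In WT it went from 10.73, 10.77 and 10.90 to 10.66, 10.70 and 10.78, where the arrays overlapped and the change was -0.09 (adjusted p = 0.671).

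Of the ER genes that rose, Xbp1, the transcription factor made active by IRE1 splicing, went from 11.13, 10.79 and 10.88 to 11.75, 11.60 and 11.58 in WT. In Rheb1/2 KO it went from 10.51, 10.65 and 10.62 to 11.37, 11.38 and 11.30. All stimulated arrays were above all unstimulated ones, and the changes were 0.71 ± 0.10 (adjusted p = 0.000752) and 0.75 ± 0.10 (adjusted p = 0.000407). Whether the measured mRNA was spliced was not tested. Hsp90b1, the ER member of the HSP90 chaperones, read 11.36, 11.08 and 11.24 before and 11.67, 11.62 and 11.57 after stimulation of WT. Its Rheb1/2 KO arrays read 11.22, 11.01 and 11.01 before and 11.38, 11.55 and 11.65 after. It rose without overlap in both, by 0.40 ± 0.11 (adjusted p = 0.0346) and 0.45 ± 0.11 (adjusted p = 0.0168).

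Pdia6, a protein disulfide isomerase, rose in WT by 0.61 ± 0.17 (adjusted p = 0.0348), from 9.05, 8.30 and 8.36 to 9.29, 9.03 and 9.22; unstimulated array 1 lay inside the stimulated range. In Rheb1/2 KO it went from 8.34, 8.58 and 8.61 to 8.93, 8.99 and 8.93, a change of 0.44 (adjusted p = 0.135) that was not called although the arrays did not overlap. Creld2, a secreted folding factor, read 9.45, 9.33 and 9.45 in unstimulated and 9.87, 9.80 and 9.86 in stimulated WT (0.44 ± 0.12, adjusted p = 0.0379). Its Rheb1/2 KO arrays read 9.34, 9.12 and 9.37, then 9.24, 9.72 and 9.45, which overlapped (0.19, adjusted p = 0.418). Sdf2l1, a BiP partner, read 9.41, 9.11 and 9.28, then 9.72, 9.63 and 9.71 in WT (0.42 ± 0.10, adjusted p = 0.0131). In Rheb1/2 KO its arrays read 9.16, 9.23 and 9.07, then 9.28, 9.30 and 9.23, with the stimulated arrays above the unstimulated ones by a narrow margin (0.12, adjusted p = 0.571).

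**Figure D2:**
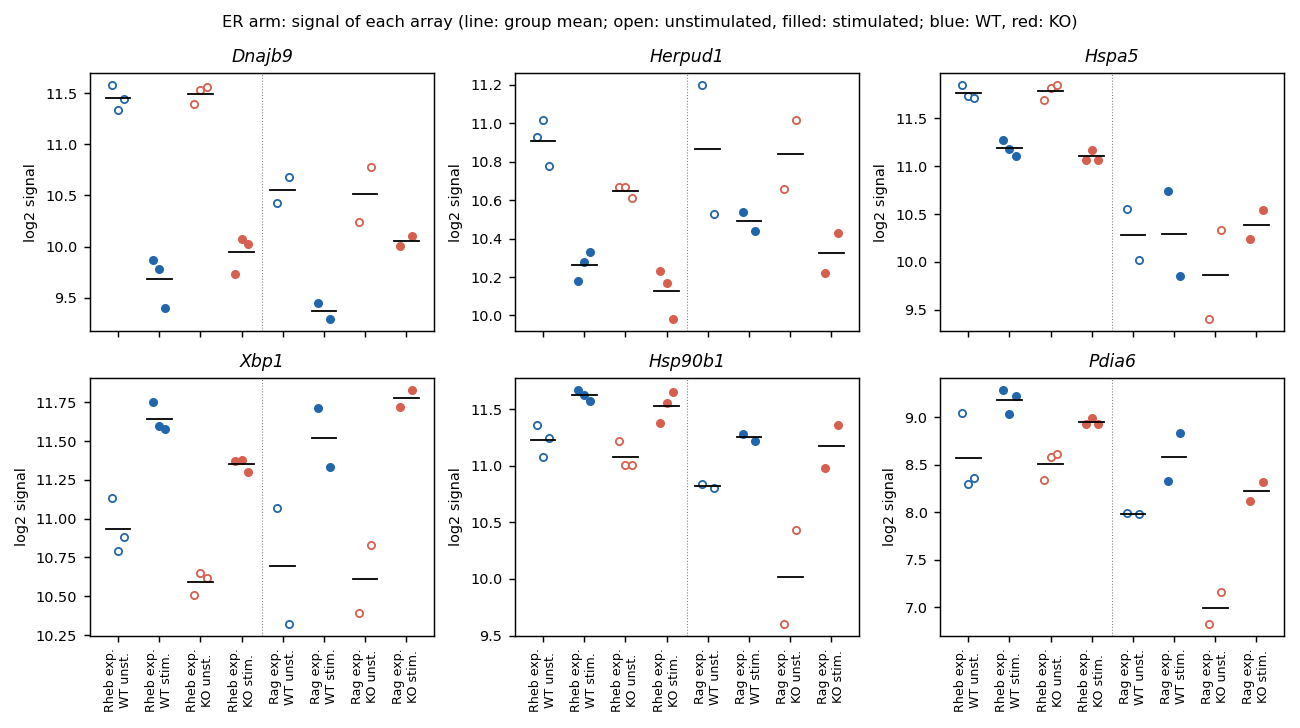
Log2 signal of Dnajb9, Herpud1, Hspa5, Xbp1, Hsp90b1 and Pdia6 (vertical axis) in each of the 20 arrays, by the 8 groups. In the Rheb experiment every stimulated array of Dnajb9 was at or under 10.07 and every unstimulated one at or above 11.34, while Xbp1 moved the other way.

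The remaining 10 ER genes were called in neither genotype, with changes between -0.33 and 0.29 in WT. Among them, the sensor Eif2ak3 (PERK) gave -0.33 in WT and -0.30 in Rheb1/2 KO (adjusted p = 0.115 and 0.162), Atf6 gave -0.12 and -0.25 (adjusted p = 0.612 and 0.215), and Ern1 (IRE1) gave 0.10 and 0.02 (adjusted p = 0.748 and 0.958). None of the 3 sensors was called, in either genotype, so the calls of the ER arm were in folding and degradation genes and Xbp1.

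In the ATF4 arm, Atf4 itself was not called. Its signals were 12.23, 12.22 and 12.18 in unstimulated and 12.05, 12.07 and 11.89 in stimulated WT, and 12.18, 12.28 and 12.30 then 12.00, 11.99 and 11.98 in Rheb1/2 KO. Stimulated arrays were the lower in both genotypes, without overlap, by -0.21 ± 0.09 (adjusted p = 0.182) and -0.27 ± 0.09 (adjusted p = 0.0731). Leaving out the 40% dimmest genes made the Rheb1/2 KO decrease a call (adjusted p = 0.0328), and a variance prior with a trend and robust fitting made both decreases calls (adjusted p = 0.0119 and 0.00154). ATF4 is regulated mainly at translation, which an mRNA array does not measure.

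The amino acid synthesis genes gave the calls of the arm together with Cebpg. Aldh18a1, the first enzyme of proline synthesis, went from 9.77, 9.99 and 9.96 to 10.54, 10.72 and 10.58 in WT and from 9.75, 9.60 and 9.76 to 10.33, 10.33 and 10.20 in Rheb1/2 KO. It rose by 0.70 ± 0.10 (adjusted p = 0.000552) and 0.58 ± 0.10 (adjusted p = 0.00181), with no overlap. Cebpg, a dimerisation partner of ATF4, went from 9.36, 9.28 and 9.40 to 9.85, 9.77 and 9.78 in WT and from 8.95, 9.10 and 9.32 to 9.69, 9.80 and 9.78 in Rheb1/2 KO. It rose by 0.45 ± 0.10 (adjusted p = 0.0125) and 0.63 ± 0.10 (adjusted p = 0.00129), also with no overlap.

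Asns (asparagine synthetase), whose promoter is printed above with its C/EBP-ATF element, read 8.76, 8.68 and 8.52 in unstimulated and 9.07, 9.56 and 9.54 in stimulated WT. The Rheb1/2 KO arrays read 9.04, 8.49 and 8.61, then 8.57, 9.09 and 9.02. WT arrays did not overlap and the gene rose by 0.74 ± 0.18 (adjusted p = 0.0195); Rheb1/2 KO arrays overlapped and the change was 0.18 ± 0.18 (adjusted p = 0.671). The difference between these responses was -0.56 ± 0.25, with an unadjusted p of 0.0462 and an adjusted p of 0.804, so a different response in the knockout was not shown.

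The pro-apoptotic branch did not yield a call. Ddit3 (CHOP) read 10.40, 10.44 and 10.47, then 10.55, 10.52 and 10.59 in WT, and 10.17, 10.32 and 10.51, then 10.26, 10.45 and 10.30 in Rheb1/2 KO. Its changes were 0.12 (adjusted p = 0.599) and 0.01 (adjusted p = 0.989; -0.02 after a second quantile normalisation); the WT arrays did not overlap and the Rheb1/2 KO arrays did. Trib3, a pseudokinase induced by ATF4 and CHOP, read 7.39, 7.38 and 7.56, then 7.51, 7.46 and 7.34 in WT, and 7.58, 7.39 and 7.33, then 7.18, 7.19 and 7.34 in Rheb1/2 KO. It read under the array medians, with changes of -0.01 (adjusted p = 0.981) and -0.20 (adjusted p = 0.295) and overlapping arrays. The serine synthesis genes Phgdh, Psat1 and Psph were called in neither genotype, with WT changes of -0.10, 0.19 and 0.05.

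**Figure D3:**
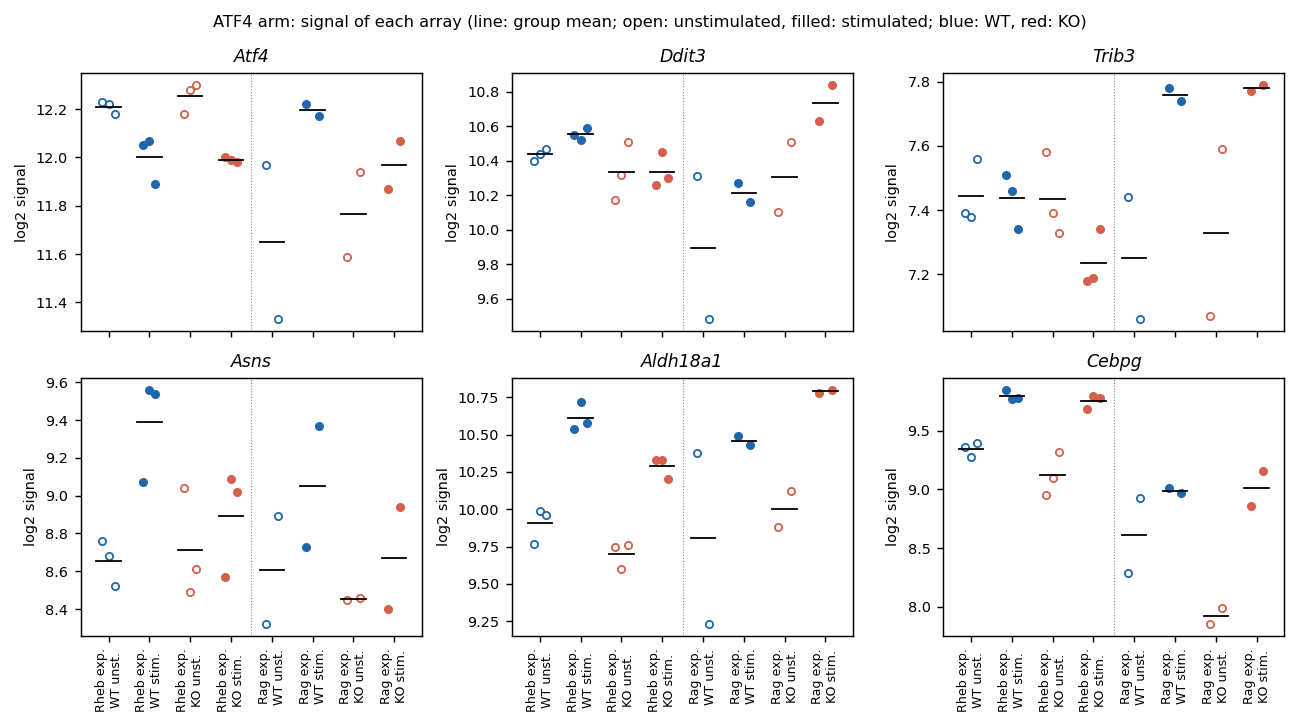
Log2 signal of Atf4, Ddit3, Trib3, Asns, Aldh18a1 and Cebpg (vertical axis) in each of the 20 arrays, by the 8 groups. In the Rheb experiment Aldh18a1 and Cebpg were higher in every stimulated array, the WT arrays of Asns ran from 9.07 to 9.56 against 8.52 to 8.76, and Atf4 lay between 11.89 and 12.30 throughout.

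Single arrays decided several of the weaker calls. In WT, the Asns call was lost without unstimulated array 3 or stimulated array 2 or 3 (change 0.65 to 0.90 over all omissions), and the Cebpg call without stimulated array 1 (0.42 to 0.48). Hsp90b1 lost its WT call without unstimulated array 2 or 3 or any stimulated WT array (0.32 to 0.46) and its Rheb1/2 KO call without unstimulated or stimulated Rheb1/2 KO array 2 or 3 (0.39 to 0.52). Pdia6 lost its WT call without unstimulated array 2 or 3 or stimulated array 1 or 3 (0.48 to 0.85), and Sdf2l1 without unstimulated array 2 or stimulated array 1 (0.35 to 0.50). Creld2 lost its call without any of the 6 WT arrays or Rheb1/2 KO stimulated array 3 (0.40 to 0.46). Syvn1 kept its call only where WT unstimulated array 2 or Rheb1/2 KO unstimulated array 3 was left out (-0.47 to -0.30), and Calr in Rheb1/2 KO lost its call without array 1 or 2 of either state (-0.37 to -0.31). Aldh18a1, Xbp1, Hspa5, Dnajb9 and Herpud1 kept their calls in both genotypes whichever array was left out. A fit of all 20 arrays lost the Hspa5 calls (adjusted p = 0.168 in WT and 0.0738 in Rheb1/2 KO) and, in Rheb1/2 KO, those of Herpud1 (adjusted p = 0.0613) and Aldh18a1 (adjusted p = 0.0926). Leaving out WT stimulated array 1 gave 6 called members in WT, and leaving out unstimulated or stimulated array 3 gave 7, in place of 12.

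The interaction, which tests whether the knockout changes the response to stimulation, called 0 of the 37 members and 0% of all genes in limma; at an unadjusted p under 0.05 it took in 2 members, Asns and Sdf2l1 (-0.31, adjusted p = 0.802), against 6.19% of all genes. Interaction estimates ran from -0.56 (Asns) to 0.31 (Stc2) in the ATF4 arm and from -0.31 (Sdf2l1) to 0.22 (Dnajb9) in the ER arm.

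Other genes of the same pathways, from further lists, are given by their counts. Of 36 other ATF4 targets, 5 rose and 4 fell in WT and 8 rose and 5 fell in Rheb1/2 KO (25% and 36.1% called, against 9.37% and 9.75% of all genes). Ppp1r15a (GADD34), which undoes eIF2alpha phosphorylation, fell by 2.22 on the log2 scale in WT and by 2.05 in Rheb1/2 KO, Atf3 fell by 0.92 and 0.68, and the arginine and lysine transporter Slc7a1 rose by 0.77 and 0.74. Called in Rheb1/2 KO with larger changes than Slc7a1 were also Slc7a3 (1.74), Crebrf (1.03), Hmox1 (-0.92) and Gadd45a (-0.79). Of 18 cytosolic aminoacyl-tRNA synthetases, 3 rose and 1 fell in WT and 4 rose and 1 fell in Rheb1/2 KO (22.2% and 27.8%). Iars was at 0.79 and 0.53, Wars at 0.65 and 1.11 and Vars at -0.61 and -0.79. Of 15 eIF2 kinases, phosphatases and subunits, 1 rose in each genotype (6.67%, below the share of all genes): Eif2ak2, or PKR, at 0.45 and 0.79. The WT calls of Wars (without unstimulated array 2 or 3 or any stimulated array), Vars (without unstimulated array 1 or 3 or stimulated array 2) and Eif2ak2 (without unstimulated array 1 or stimulated array 1 or 3) were lost on leaving out a single WT array, with changes of 0.54 to 0.72, -0.78 to -0.50 and 0.32 to 0.54. In Rheb1/2 KO the Atf3 call was lost without unstimulated array 2 or 3 or stimulated array 1 or 2 (-0.85 to -0.52). Omission of arrays was not examined for Iars, Slc7a3, Crebrf, Hmox1 and Gadd45a.

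On the ER side, 1 of 30 further chaperones rose and 1 fell in WT, and 2 rose and 2 fell in Rheb1/2 KO (6.67% and 13.3% called, near the 9.37% and 9.75% of all genes). Of 20 genes of ER-associated degradation, 2 rose and 1 fell in WT (Derl2 rose by 0.51) and 1 rose and 1 fell in Rheb1/2 KO (Derl2 rose by 0.65), or 15% and 10%. Of 32 translocon, signal peptidase and glycosylation genes, 2 rose in WT and 4 in Rheb1/2 KO, with none lower (6.25% and 12.5%), and Spcs3, a signal peptidase subunit, was at 0.47 and 0.60. Of 21 genes of ER-to-Golgi transport and unfolded protein response regulators, 3 rose in each genotype (14.3%), led by the ER-bound transcription factor Creb3l2 (1.09 in WT, 0.66 in Rheb1/2 KO). The WT call of Spcs3 was lost without unstimulated array 1 or stimulated array 1 or 2 (0.44 to 0.51), and the Rheb1/2 KO call of Creb3l2 without stimulated array 2 (0.55 to 0.77).

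Other markers moved in the same comparison. A list of 17 genes known to respond to cell handling and dissociation, which shares none with the members, had 14 genes lower in WT and 15 lower in Rheb1/2 KO (medians -0.93 and -0.87), and its mean signal ran from 10.69 to 10.73 in unstimulated and from 9.63 to 9.66 in stimulated WT arrays, and from 10.58 to 10.79 and from 9.64 to 9.72 in Rheb1/2 KO. Of 11 macrophage markers, 8 fell in each genotype, and the mean of the list ran from 7.39 to 7.42 and then from 6.67 to 6.88 in WT, and from 7.75 to 7.87 and then from 6.67 to 6.70 in Rheb1/2 KO. Csf1r, a defining macrophage gene, read 7.96 to 8.66 in unstimulated and 6.68 to 7.20 in stimulated WT arrays. Of 11 dendritic cell markers 4 fell in each genotype, and Itgax, which defines these cells, read 6.47 to 6.77 in unstimulated and 5.93 to 6.23 in stimulated WT arrays, and 6.78 to 7.38 and then 6.13 to 6.48 in Rheb1/2 KO; it was above the negative controls' median in 1 of the 12 arrays, an unstimulated knockout one. Of 9 NK cell markers 3 fell in WT and 2 in Rheb1/2 KO, and their mean ran from 6.65 to 6.88 and then from 6.34 to 6.40 in WT, and from 6.99 to 7.22 and then from 6.62 to 6.85 in Rheb1/2 KO. The part of these lists in the falls of Dnajb9, Herpud1 and Hspa5 was not tested. Stimulation and any difference in time since the sort cannot be told apart.

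Loss of Rheb1/2 changed no member by the test, while most ER genes read lower in knockout than in WT arrays. In unstimulated Tregs 0 of 37 members were called (0.508% of all genes were), and at an unadjusted p under 0.05 limma took in 8, 1 higher and 7 lower (10.2% of all genes). In stimulated Tregs 0 were called (0.543% of all genes), and 8 had an unadjusted p under 0.05, all lower (9.25% of all genes, 5.47% lower). The KO-WT comparisons share their WT and KO arrays with the stimulation comparisons above.

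In the ER arm, 15 of 20 differences were below 0 in unstimulated Tregs (median -0.15, against 0.02 over all genes, of which 45.9% were below 0). In stimulated Tregs 17 of 20 were below 0 (median -0.22, against -0.01, with 52.7% of all genes below 0). Below 0 in both states were 15 of 20 ER genes (75%), 8 of 17 ATF4 genes (47.1%) and 27.3% of all genes. All 3 knockout arrays lay below all 3 WT arrays for 5 of 20 ER genes without stimulation (25%, against 7.08% of all genes) and for 8 of 20 with it (40%, against 8.8%). The ATF4 arm had 9 and 13 of 17 differences below 0, with medians of -0.01 and -0.07, and 2 (11.8%) and 4 (23.5%) of 17 genes with knockout arrays all lower. The wider lists leaned below 0 too, so this was not particular to the ER arm. Synthetases had 14 and 16 of 18 below 0 (medians -0.13 and -0.16) and ER-associated degradation 14 and 17 of 20 (-0.05 and -0.06). Translocon genes had 24 and 19 of 32, further chaperones 17 and 19 of 30, and transport and regulator genes 14 and 14 of 21. Other ATF4 targets had 21 and 23 of 36 and eIF2 genes 9 and 11 of 15.

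Marker lists of other cell types differed between the same arrays. The mean of 9 NK cell markers ran from 6.99 to 7.22 in unstimulated knockout against 6.65 to 6.88 in WT arrays, and from 6.62 to 6.85 against 6.34 to 6.40 in stimulated ones, without overlap in either state; 1 marker was called higher in each, and 4 to 6 of the 9 lay below the negative controls' median in every array of a group. Of 11 dendritic cell markers 2 were called higher in unstimulated and 1 in stimulated knockout arrays, with list means of 7.79 to 7.92 against 7.48 to 7.64 and of 7.31 to 7.41 against 7.08 to 7.32. Of 11 macrophage markers 2 were called higher in unstimulated knockout arrays, where 11 of 11 had differences above 0 (median 0.36), and 0 in stimulated ones by limma, where 4 of 11 were above 0. The 4 CD8 T cell markers averaged 7.22 to 7.49 in stimulated knockout against 7.52 to 7.70 in WT arrays. The 8 Treg markers averaged 10.87 to 11.05 against 11.06 to 11.15 without stimulation and 11.02 to 11.10 against 11.15 to 11.17 with it, and none was called in either state by limma. The part of these differences in the member values was not tested.

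**Figure D4:**
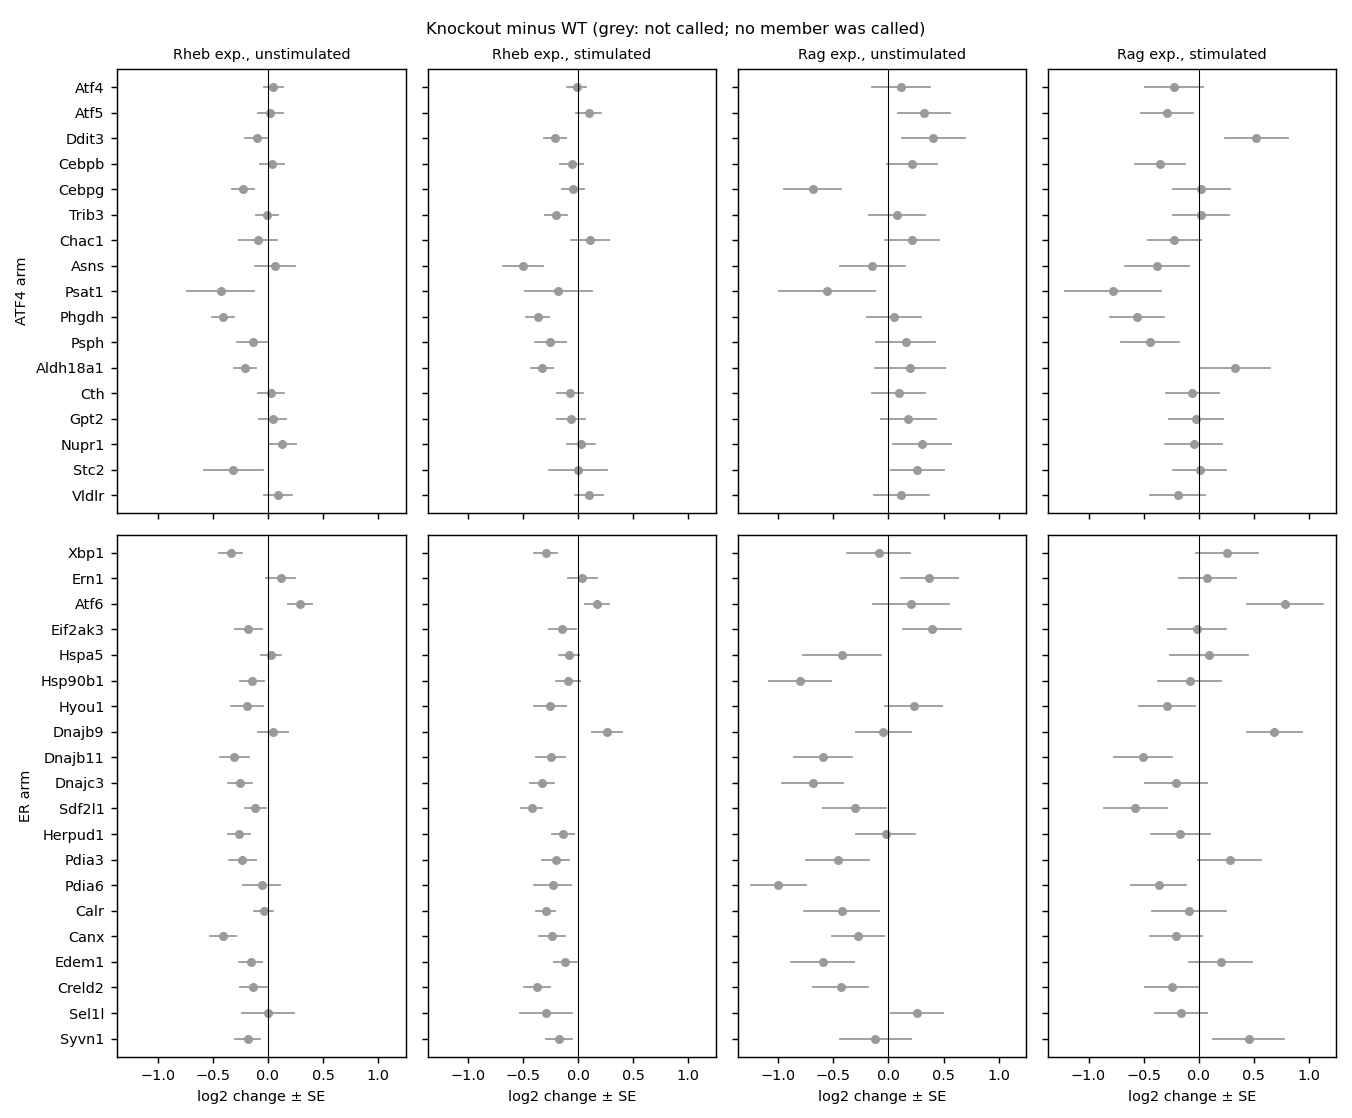
Log2 difference of knockout minus WT (horizontal axis, bars are standard errors) for each of the 37 measured genes, in unstimulated and stimulated Tregs of both experiments; all are grey because none was called. In the Rheb experiment the ER genes crowd to the left of 0 (15 of 20 unstimulated, 17 of 20 stimulated).

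Xbp1 was among the lower genes in both states. As the arrays given above show, knockout read 10.51 to 10.65 against 10.79 to 11.13 in WT without stimulation, and 11.30 to 11.38 against 11.58 to 11.75 with it, with no overlap. The differences were -0.34 ± 0.10 (unadjusted p = 0.00618, adjusted p = 0.233) and -0.30 ± 0.10 (adjusted p = 0.353). Sdf2l1 in stimulated Tregs came nearest to a call: knockout arrays read 9.23 to 9.30 and WT arrays 9.63 to 9.72, a difference of -0.42 ± 0.10 (unadjusted p = 0.000735, adjusted p = 0.0899). Without the 40% dimmest genes, Sdf2l1 was called lower (adjusted p = 0.0448). Creld2 differed by -0.37 (adjusted p = 0.297) and Calr by -0.30 in the same state, both below the unadjusted threshold only.

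Among ATF4 genes, Aldh18a1 read lower in knockout arrays without overlap in both states, by -0.21 and -0.33 (adjusted p = 0.249 in stimulated Tregs). Asns differed by -0.50 in stimulated Tregs (adjusted p = 0.369), where WT arrays ran from 9.07 to 9.56 and knockout arrays from 8.57 to 9.09. Phgdh, the first enzyme of serine synthesis, differed by -0.41 and -0.37. Atf4, Ddit3 and Trib3 were not called in either state.

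Outside the members, the wider pathway lists gave 4 calls for Rheb1/2 loss, in 3 genes: 2 of the 36 other ATF4 targets without stimulation (5.56%) and 1 with it (2.78%), and 1 of the 21 transport and regulator genes with it (4.76%). Ndrg1, a stress-induced gene on the list of other ATF4 targets, rose by 0.81 ± 0.10 in unstimulated (adjusted p = 0.00536) and by 0.66 ± 0.10 in stimulated knockout Tregs (adjusted p = 0.0162); the second call was lost without WT stimulated array 1 or 3 or knockout stimulated array 1 or 2 (0.62 to 0.72). In a fit of all 20 arrays neither was called (adjusted p = 0.06 and 0.255). Nfil3, a transcription factor, fell by 0.76 in unstimulated knockout Tregs (adjusted p = 0.00536), a call lost with only the 2 groups compared in the fit (adjusted p = 0.0541) and in the fit of all 20 arrays (adjusted p = 0.528). Creb3l2 averaged 10.1 ± 0.11 (SD, n = 3) in stimulated WT and 8.98 ± 0.22 (SD, n = 3) in stimulated knockout arrays, a difference of -1.12 ± 0.15 (adjusted p = 0.00539). That call held whichever array was left out and was lost in the fit of all 20 arrays (adjusted p = 0.243). In unstimulated Tregs the Creb3l2 difference was -0.69 ± 0.15 (adjusted p = 0.0625).

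In the Rag experiment, stimulation for 8 h gave 1 called member in each genotype: Dnajb9 fell in WT (1 of 37, against 1% of all genes) and Pdia6 rose in RagAB KO (1 of 37, against 1.32% of all genes). At an unadjusted p under 0.05, 7 members were taken in for each genotype (15% of all genes in WT and 14.4% in RagAB KO). With 2 arrays a group, standard errors were larger than in the Rheb experiment (0.22 to 0.44 in the ATF4 arm against 0.09 to 0.30). All genes shifted too: the all-gene median was 0.21 in WT and 0.09 in RagAB KO, and 0.04 and -0.03 once the arrays were quantile normalised a second time, so changes are read against that shift.

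Dnajb9 read 10.43 and 10.68 in unstimulated and 9.45 and 9.29 in stimulated WT arrays, apart from each other, a change of -1.19 ± 0.25 (adjusted p = 0.041). Its RagAB KO arrays read 10.24 and 10.78, then 10.01 and 10.10, also without overlap, a change of -0.46 (adjusted p = 0.467). The genotypes' responses differed by 0.73 (adjusted p = 0.728), which was not called. The WT call was lost whenever an array other than RagAB KO unstimulated 1 or 2 was left out, with changes of -1.32 to -1.06.

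Pdia6 read 6.82 and 7.16 in unstimulated and 8.12 and 8.32 in stimulated RagAB KO arrays, a rise of 1.23 ± 0.25 (adjusted p = 0.0304). In WT it read 7.99 and 7.98, then 8.33 and 8.83, a change of 0.59 (adjusted p = 0.302), so the unstimulated knockout arrays were the lowest of the experiment. There Pdia6 lay below the all-gene medians of 7.29 and 7.48, where the negative controls' medians were 6.11 and 6.55. The RagAB KO call was lost without RagAB KO unstimulated array 1, either unstimulated WT array or either stimulated RagAB KO array (1.06 to 1.40). The responses differed by 0.64 (adjusted p = 0.728).

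Other genes that were called in the Rheb experiment gave uncalled values here. Xbp1 read 11.07 and 10.32, then 11.71 and 11.33 in WT (0.83, adjusted p = 0.218), and 10.39 and 10.83, then 11.72 and 11.83 in RagAB KO (1.17, adjusted p = 0.0663), with the stimulated arrays above the unstimulated ones in both. Hsp90b1 read 10.84 and 10.80, then 11.28 and 11.22 in WT (0.43, adjusted p = 0.446), and 9.60 and 10.43, then 10.98 and 11.36 in RagAB KO (1.15, adjusted p = 0.0667). Both genes were separated in the direction seen in the Rheb experiment. Cebpg read 8.29 and 8.93, then 9.01 and 8.97 in WT (0.38, adjusted p = 0.466), and 7.85 and 7.99, then 8.86 and 9.16 in RagAB KO (1.09, adjusted p = 0.0614). Without the 40% dimmest genes, Cebpg, Xbp1 and Hsp90b1 joined Pdia6 as calls in RagAB KO, giving 4. Without RagAB KO unstimulated array 2 the count was 5.

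Hspa5, which fell in the Rheb experiment, was not called in the Rag experiment. It read 10.55 and 10.02, then 10.74 and 9.85 in WT, and 9.40 and 10.33, then 10.24 and 10.54 in RagAB KO. The WT change was 0.01 (adjusted p = 0.991; -0.14 after the second normalisation) and the RagAB KO change 0.52 (adjusted p = 0.614). Its 4 highest arrays were the 4 with high Jchain. Herpud1 read 11.20 and 10.53, then 10.54 and 10.44 in WT (-0.38, adjusted p = 0.479), overlapping, and 10.66 and 11.02, then 10.22 and 10.43 in RagAB KO (-0.52, adjusted p = 0.422), apart; after the second normalisation the RagAB KO change was -0.94 and was called (adjusted p = 0.0213). Syvn1 read 9.96 and 9.17, then 9.93 and 9.23 in WT (0.02, -0.09 after the second normalisation), and 9.14 and 9.76, then 10.06 and 10.02 in RagAB KO (0.59). In the WT pairs array 1 stood above array 2 for Hspa5 and Syvn1 in both states. The same arrays had Jchain at 9.66 and 9.33 against 7.20 and 6.94. There 8 plasma cell markers, Jchain among them, averaged 7.92 and 7.93 against 6.94 and 7.21. The all-gene medians of these arrays were 7.52 and 7.52 against 7.18 and 7.55. In RagAB KO, Hspa5 was higher in the array with high Jchain in both states, and Syvn1 was so without stimulation. In stimulated RagAB KO Syvn1 read 10.06 and 10.02 where Jchain read 7.55 and 10.17. The 8 plasma cell markers averaged 7.12 and 7.80 in unstimulated and 7.48 and 7.85 in stimulated RagAB KO arrays. The part of plasma cell RNA in the ER values was not tested.

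Of the remaining called ER genes of the Rheb experiment, Calr read 10.71 and 9.93, then 10.59 and 10.25 in WT, and 9.39 and 10.40, then 10.37 and 10.29 in RagAB KO. Its WT array 1 was again the higher in each state, and its WT change was 0.09 (-0.05 after the second normalisation). In RagAB KO the array with high Jchain was the higher for Calr without stimulation and the lower with it. Creld2 read 9.36 and 8.98, then 9.59 and 9.90 in WT, and 8.64 and 8.83, then 9.37 and 9.64 in RagAB KO, where stimulated arrays were above unstimulated ones in both (0.58 and 0.77, adjusted p = 0.307 and 0.146). Sdf2l1 read 9.07 and 8.41, then 9.37 and 9.42 in WT, and 8.22 and 8.65, then 8.55 and 9.09 in RagAB KO, with changes of 0.66 and 0.39 (adjusted p = 0.313 and 0.667).

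In WT Tregs of the Rag experiment all 17 genes of the ATF4 arm had a change above 0 (median 0.46), as did 73.1% of all genes. Of the 17 genes, 15 were above the all-gene median of 0.21. After the second normalisation the median was 0.29 and 17 of 17 lay above the all-gene median of 0.04. Stimulated arrays were all above unstimulated ones for 12 of 17 (70.6%, against 37.3% of all genes). None was called, and 1 had an unadjusted p under 0.05 in limma. The arm's median ran from 0.26 to 0.70 as single arrays were left out, the highest without WT unstimulated array 1. WT unstimulated array 2 had the lowest all-gene median of the Rag arrays, 7.18. The 17 genes include Cth and Stc2, which read under the negative controls' median in every array. In RagAB KO the median was 0.18 against 0.09 over all genes, 12 of 17 were above 0 (9 after the second normalisation, when the median was 0.035 against -0.03 over all genes), and none was called, with 2 at an unadjusted p under 0.05 in limma. That median ran from 0.028, without RagAB KO unstimulated array 1, to 0.23 as single arrays were left out. In the ER arm the medians were 0.26 in WT (0.12 after the second normalisation) and 0.39 in RagAB KO (0.04), and 14 and 16 of 20 genes lay above 0 (11 and 12). Of all genes, 73.1% lay above 0 in WT and 61.9% in RagAB KO, with medians of 0.21 and 0.09. The 8 Treg markers averaged 10.14 to 10.68 in unstimulated and 11.24 to 11.27 in stimulated RagAB KO arrays, where 3 were called higher, and 10.55 to 11.17 and then 10.86 to 11.37 in WT; their part in the member values was not tested.

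Atf4 read 11.97 and 11.33, then 12.22 and 12.17 in WT (0.54, adjusted p = 0.347), and 11.59 and 11.94, then 11.87 and 12.07 in RagAB KO (0.20, -0.31 after the second normalisation). WT arrays did not overlap and RagAB KO arrays did. Asns read 8.32 and 8.89, then 8.73 and 9.37 in WT (0.44, adjusted p = 0.453), and 8.45 and 8.46, then 8.40 and 8.94 in RagAB KO (0.21, -0.04 after the second normalisation), overlapping in both. Aldh18a1 read 10.38 and 9.23, then 10.49 and 10.43 in WT (0.65, adjusted p = 0.347), and 9.88 and 10.12, then 10.78 and 10.80 in RagAB KO (0.79, adjusted p = 0.257); the stimulated arrays were above in both. Ddit3 read 10.31 and 9.48, then 10.27 and 10.16 in WT (0.32), and 10.10 and 10.51, then 10.63 and 10.84 in RagAB KO (0.43). Trib3 read 7.44 and 7.06, then 7.78 and 7.74 in WT (0.51), and 7.07 and 7.59, then 7.77 and 7.79 in RagAB KO (0.45), again with stimulated arrays above.

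Several other ATF4 targets were called in this experiment although no member of the ATF4 arm was. Of the 36 on that list 5 rose in WT and 5 in RagAB KO (13.9%, against 1% and 1.32% of all genes called), with none lower: Nfil3 rose by 1.97 and 3.38, Atf3 by 1.90 and 2.11, the aspartate transaminase Got1 by 1.70 and 2.05 and Slc7a1 by 1.51 and 1.63. Atf3 thus rose here and fell in the Rheb experiment, by 0.92 in WT and 0.68 in Rheb1/2 KO; the difference between experiments was not tested. None of 18 synthetases was called in limma, while 10 in WT and 12 in RagAB KO had an unadjusted p under 0.05, all higher, beside 15% and 14.4% of all genes (2128 of 2932 and 2522 of 2800 of these higher). Of 32 translocon and glycosylation genes Spcs3 was called, in RagAB KO (1.20, adjusted p = 0.0482), and 32 of 32 lay above 0 there, as did 61.9% of all genes. The handling list, which shares Atf3 with the other ATF4 targets, had 3 genes higher and 3 lower in WT and 4 higher and 2 lower in RagAB KO. In WT, the calls of Nfil3 (1.28 to 2.67) and Slc7a1 (1.19 to 1.82) were lost without unstimulated array 2 or any stimulated array of either genotype, and those of Atf3 (1.61 to 2.18) and Got1 (1.36 to 2.04) without unstimulated array 2 or either stimulated WT array. In RagAB KO, Atf3 lost its call without stimulated array 2 (1.76 to 2.46), Got1 without stimulated array 1 (1.81 to 2.30), Slc7a1 without unstimulated array 1 or either stimulated array (1.26 to 2.00) and Spcs3 without any array but unstimulated RagAB KO array 2 (0.87 to 1.53).

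Loss of RagA and RagB changed no member by the test. In unstimulated Tregs 0 of 37 were called (0.113% of all genes), and 5 had an unadjusted p under 0.05 in limma, all lower (6.66% of all genes had such a p, 4.67% lower): Pdia6 by -0.998 (unadjusted p = 0.00148, adjusted p = 0.339), Hsp90b1 by -0.80, Dnajc3 by -0.69, Cebpg by -0.69 and Dnajb11 by -0.59. In the ER arm 15 of 20 differences were below 0, as were 45.7% of all genes, with medians of -0.29 and 0.03. Wider lists leaned the same way: synthetases 17 of 18 below 0 (median -0.38), translocon genes 29 of 32 (-0.26), ER-associated degradation 17 of 20 (-0.19). Further chaperones had 22 of 30, transport and regulator genes 15 of 21, eIF2 genes 10 of 15, and other ATF4 targets 18 of 36. After the second normalisation 11 of the 20 ER arm genes were below 0, since Xbp1, Dnajb9, Herpud1 and Syvn1 turned, and the ER arm's median was -0.19. Leaving out RagAB KO unstimulated array 1 gave a median of 0.06, and leaving out RagAB KO unstimulated array 2 gave -0.50 and 3 members called lower. In the ATF4 arm 14 of 17 were above 0 (54.3% of all genes were), with a median of 0.16 that was -0.07 without WT unstimulated array 2, 0.058 without RagAB KO unstimulated array 2, 0.26 without RagAB KO unstimulated array 1 and 0.31 without WT unstimulated array 1. In the same arrays the mean of 11 dendritic cell markers ran from 7.24 to 7.40 in RagAB KO against 6.58 to 6.98 in WT, and that of 9 NK cell markers from 6.73 to 7.27 against 6.25 to 6.69, both without overlap, with 10 of 11 and 8 of 9 differences above 0 and none called by limma. The 8 Treg markers averaged 10.14 to 10.68 against 10.55 to 11.17, with 1 of 8 differences above 0. The part of these differences in the member values was not tested.

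In stimulated Tregs 0 of 37 were called for RagAB KO (0.103% of all genes), and 3 had an unadjusted p under 0.05 (5.07% of all genes): Atf6 at 0.78, Dnajb9 at 0.69 (adjusted p = 0.765) and Phgdh at -0.56. Medians were -0.19 in the ATF4 arm and -0.09 in the ER arm, against -0.05 over all genes. NK cell markers averaged 6.53 to 6.84 in RagAB KO against 6.25 to 6.41 in WT, and dendritic cell markers 7.21 to 7.44 against 7.06 to 7.08, with none called by limma. The interaction called 0 members and 0% of all genes, with 0 members at an unadjusted p under 0.05 in limma (6.16% of all genes). Ndrg1 differed by 1.56 in stimulated RagAB KO (adjusted p = 0.0627), with knockout arrays at 11.2 and 11.6 and WT arrays at 9.57 and 10.1. In limma Ndrg1 was called higher with the second normalisation (adjusted p = 0.0235) and without the 40% dimmest genes (adjusted p = 0.014). The trended and robust prior (adjusted p = 0.0106) and a fit of only the 2 groups (adjusted p = 0.00125) also called it. So did the fit of all 20 arrays (adjusted p = 0.000238) and the replicate block (adjusted p = 0.0347). It stayed uncalled with the mean of all probe sets. Without both RagAB KO arrays numbered 2, which leaves a single array in each RagAB KO group, the difference was 1.74.

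The knockout effects of the 2 experiments were compared in 1 fit of all 20 arrays, with each knockout set against its experiment's WT arrays. In unstimulated Tregs 0 of 37 members differed by the test (0.0564% of all genes did), and 3 had an unadjusted p under 0.05 (7.31% of all genes): Eif2ak3 at 0.57, Hsp90b1 at -0.66 and Pdia6 at -0.94 ± 0.28, where a negative value means that RagAB loss gave the lower difference. Without WT unstimulated array 1 of the Rag experiment 1 member was called, and without RagAB KO unstimulated array 2 there were 2. In stimulated Tregs 0 were called (0.19% of all genes), and 2 had an unadjusted p under 0.05 (7.06% of all genes): Ddit3 at 0.74 (unadjusted p = 0.0122, adjusted p = 0.543) and Aldh18a1 at 0.66 (unadjusted p = 0.04, adjusted p = 0.682). For both of these RagAB KO arrays read above WT and Rheb1/2 KO arrays below WT on average.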

How the data were processed

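Gene expression was measured on 20 Affymetrix Clariom S mouse arrays (12 of the Rheb experiment, 8 of the Rag experiment), from sorted Tregs amplified with the NuGEN Pico kit, per the labels' protocols. The deposited values are log2 signals that the authors made with RMA in Affymetrix Expression Console 1.1, per the submitters' processing notes; the version of the gene annotation is not given in the sources used here. RMA evens arrays out by quantiles, which can hide a shift common to all genes, and the number of arrays limits the precision. The deposited Rag arrays were not fully even, with medians of 7.18 to 7.55. Their all-gene median change on stimulation of WT was 0.21, and 0.04 after a second quantile normalisation.

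Of 28846 probe sets, 19572 had 1 gene name, and the probe set of highest mean signal stood for each of 19505 genes (55 had several; of the members Ddit3 did). Differences were fitted with limma 3.58.1 in R 4.3.3 (lmFit and eBayes), in 1 fit of 4 groups per experiment, and in 1 fit of 8 groups for the difference between knockout effects. Benjamini-Hochberg adjustment ran over all genes. The procedure was tested on simulated data.

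The members and all gene lists were chosen with earlier results of these data known. Array values are given for each member called in at least 1 comparison and for Atf4, Ddit3, Trib3, Asns, Xbp1 and Hspa5. From the other lists only some called genes are named, not always those of largest absolute change. Ndrg1 in stimulated RagAB KO Tregs, which was not called, was named after its values were seen. Alternatives were a second quantile normalisation, the mean of all probe sets, no genes of the dimmest 40%, a trended and robust variance prior, fits of fewer or more groups, blocking on the replicate number (also within each Rag genotype, added after the data were seen), and omission of arrays.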

Additional observations from a re-analysis of the deposited data

Results flagged for a closer look

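Atf4 in WT Tregs, and Dnajc3 and Syvn1 in knockout Tregs, stood out. Their stimulated arrays lay below the unstimulated ones in the Rheb experiment and above them in the Rag experiment, without overlap. Each gene met this in 1 genotype only. Of all genes, 11.5% (WT) and 14.4% (Rheb1/2 KO) were lower without overlap in the Rheb experiment. In the Rag experiment 37.3% (WT) and 31.9% (RagAB KO) were higher without overlap, with all-gene median changes of 0.21 and 0.09. The difference between the experiments was not tested, and they differ in arrays, number of arrays and, as far as the labels tell, possibly in length of stimulation. In WT Tregs, the log2 change of Atf4 was -0.21 (adjusted p = 0.182) in the Rheb experiment and 0.54 (adjusted p = 0.347) in the Rag experiment. In knockout Tregs, Dnajc3, the ER co-chaperone P58IPK, had a log2 change of -0.33 (adjusted p = 0.0778) in Rheb1/2 KO and of 0.44 (adjusted p = 0.578) in RagAB KO. Syvn1 gave -0.38 (adjusted p = 0.0522) in Rheb1/2 KO and 0.59 (adjusted p = 0.468) in RagAB KO. None of these 6 changes was called by limma.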

How the results depend on the processing

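No result turned its direction past the threshold under any alternative run. Of the 12 counts of called members, those for Rheb1/2 KO minus WT in unstimulated Tregs, RagAB KO minus WT in stimulated Tregs, both interactions and the stimulated difference between knockout effects stayed at 0 throughout. Leaving out the dimmest 40% of genes gave 1 call in stimulated Rheb1/2 KO minus WT (Sdf2l1) and 4 in the response of RagAB KO. That RagAB KO response, 1 call as reported, gave 2 after the second quantile normalisation (Herpud1 added), 2 with the trended and robust prior and 0 with only the 2 groups compared. A fit of all 20 arrays called 5 members for the WT and 3 for the Rheb1/2 KO response of the Rheb experiment, 5 and 7 for the WT and RagAB KO responses of the Rag experiment, and 1 for unstimulated RagAB KO minus WT. Without both RagAB KO arrays numbered 2, unstimulated RagAB KO minus WT called 2 and the unstimulated difference between knockout effects 1. The ER median of the RagAB KO response was 0.035 after the second normalisation and 0.68 without those arrays, and that of the Rag interaction 0.61 without them. Leaving out single arrays gave 6 to 12 calls for the WT response of the Rheb experiment, 0 to 3 for unstimulated RagAB KO minus WT, 0 to 1 and 0 to 5 for the WT and RagAB KO responses, and 0 to 2 for the unstimulated difference between knockout effects. It moved the ER median of unstimulated RagAB KO minus WT from -0.50 to 0.065, of the RagAB KO response from 0.087 to 0.70, of the Rag interaction from 0.048 to 0.68 and of the unstimulated difference between knockout effects from -0.40 to 0.20. The ATF4 median ran from 0.26 to 0.70 in the WT response of the Rag experiment, from -0.50 to -0.071 in the Rag interaction and from -0.073 to 0.39 in the unstimulated difference between knockout effects. The causes were not tested, beyond fewer genes or arrays in the fit where the alternative itself brings this. Same-numbered arrays of the Rheb experiment had correlated deviations from -0.20 to 0.18 (2 of 18 pairs over 0.1). In the Rag experiment 6 of 12 were over 0.1: 0.23 within WT and 0.17 within RagAB KO, but -0.43 to 0.11 across genotypes. With 2 arrays a group the deviations mirror each other, so each of these values occurs in 2 pairs. The Rag count is therefore not comparable with the Rheb count. The labels do not say what the numbers mark, so no pairing was assumed. With the replicate number as a block, the RagAB KO response gave 3 calls and the Hsp90b1, Creld2 and Syvn1 calls of the WT response in the Rheb experiment were lost. A replicate block within each Rag genotype, added after the data were seen, gave 3 calls for the WT response (Dnajb9, Psat1 and Xbp1) and 5 for the RagAB KO response (Aldh18a1, Cebpg, Hsp90b1, Pdia6 and Xbp1), against 1078 and 1554 calls over all genes; with 2 residual degrees of freedom limma gave every gene 1 shared variance here, so these p-values leave out each gene's own spread. Genes near the negative controls, such as Cth and Stc2, limit what the arrays can show, and 2 arrays a group limit every value of the Rag experiment.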
